A study of Mus musculus with 34 samples.

Results

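Caspases and the genes of the apoptosome were examined in RNA-seq of E11.5 mouse limb buds, as 8 named genes among the 22040 protein-coding genes of the deposited FPKM table. The genes are *Cycs*, *Apaf1*, *Casp9*, *Casp8*, *Casp2*, *Casp6*, *Xiap* and *Diablo*, and each has 1 row in the table. They were chosen by name for their place in one pathway, with earlier results of these data known. FPKM is the number of fragments on a gene, divided by the gene's length and by the size of the library. The study compared 3 libraries from WT limb buds, labelled Hnrnpk WT, with 3 from CKO limb buds, labelled Hnrnpk CKO, to find genes whose expression changes when *Hnrnpk* is deleted. CKO embryos were *Prrx1-Cre;Hnrnpk fl/fl*, in which Cre, driven by the *Prrx1* enhancer in limb bud mesenchyme, removes exons 4 to 7 of *Hnrnpk*. Ectoderm, vessels and blood in the bud are not targeted by this Cre. Which alleles the WT embryos carried and how many embryos went into a library are not given in the sources used here, and the embryos were of either sex.

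Caspases are proteases made as inactive precursors, and apoptosis runs through a short chain of them. In the mitochondrial branch, cytochrome c (*Cycs*) leaves the mitochondria and binds Apaf1, which assembles into the apoptosome and activates caspase 9. In the receptor branch, caspase 8 is activated on death receptors. Both branches end in executioner caspases, Xiap restrains them, and Diablo leaves the mitochondria to bind Xiap. In the limb bud this machinery serves the normal cell death between and around the digits. Caspase activity is controlled largely at the protein level, by cleavage, release and binding, which RNA-seq does not measure.

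*Hnrnpk* itself averaged 191 ± 5.0 FPKM in WT libraries and 135 ± 7.48 FPKM in CKO libraries (SD, n = 3 each), and each CKO library was below every WT library. Its log2 fold change was -0.50 (adjusted *p* = 0.334 by limma, 0.0575 with the replicate block), and the FPKM counts the whole gene and not the deleted exons alone. The library size recovered from the FPKM ranged from 18026057 in WT replicate 1 to 23935507 in WT replicate 2. The reads recovered over all listed genes came to 0.947 of that size in CKO replicate 1. They exceeded it in CKO replicates 2 (1.11) and 3 (1.03), so their sum is not an exact count of reads. Summed FPKM of 8 limb mesenchyme genes, among them *Prrx1*, *Twist1* and *Tbx5*, lay between 347 and 396 in WT and between 298 and 336 in CKO, and none of the 8 was at 0 in any library. Globin genes, which mark red blood cells, held from 11.7% of the summed FPKM in CKO replicate 1 to 32.4% in CKO replicate 2. Replicate 1 had the lowest share in each group. The summed FPKM ran from 16.4 to 26.8 in WT and from 18.7 to 33.4 in CKO for macrophage markers, from 34.5 to 69.0 and from 39.1 to 70.5 for ectoderm, from 15.5 to 24.3 and from 12.1 to 17.9 for endothelium, from 8.75 to 23.8 and from 19.5 to 27.2 for muscle precursors, and from 1.81 to 4.27 and from 3.82 to 4.56 for neural crest and Schwann precursors. No tested marker passed the adjusted threshold by limma, which 0.0650% of all genes passed. Higher in CKO were 1 of 8 tested limb mesenchyme genes, 10 of 10 erythroid, 7 of 7 macrophage and 5 of 6 ectoderm genes. So were 0 of 4 endothelial, 4 of 4 muscle precursor and 2 of 2 neural crest and Schwann precursor genes, where 50.9% of all genes were. The part of these markers in the results was not tested. In such bulk samples, fewer cells of a type and less RNA per cell cannot be told apart.

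None of the 8 genes differed between CKO and WT limb buds by limma with an adjusted *p* value under 0.05, and none had an unadjusted *p* value under 0.05. Over all 12305 genes tested, those with a mean FPKM of at least 0.5, the percentages called by these rules were 0.0650% and 8.31%. In none of the 8 genes were the CKO values all on one side of the WT values, a separation seen in 14.5% of the genes tested. The 8 genes all passed that filter. The median of their log2 fold changes was -0.10, against 0.00 over all genes tested, with *Cycs*, *Casp2* and *Apaf1* above 0 and the other 5 below, where 50.9% of all genes were above 0. An exact two-sided permutation test for each gene gave *p* values between 0.2 and 0.8, and 3 libraries against 3 cannot go below 0.1.

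The labels give WT and CKO libraries the same replicate numbers. Deviations from the group means correlated at 0.64, 0.44 and 0.27 between libraries numbered 1, 2 and 3. The deviations within a group sum to 0, so these correlations are not independent of each other. Crossed pairs of numbers 2 and 3 correlated as much, at 0.49 (WT replicate 2, CKO replicate 3) and 0.31 (WT replicate 3, CKO replicate 2). Numbers 2 and 3 are therefore not told apart by these values. With the replicate number as a block, which compares CKO with WT within each number, again none of the 8 genes had an adjusted *p* value under 0.05, where 2.81% of all genes did. *Casp8*, lower in CKO, and *Cycs*, higher in CKO, then had an unadjusted *p* value under 0.05, that is 2 of 8 genes, where 18.4% of all genes did.

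**Figure D1:**
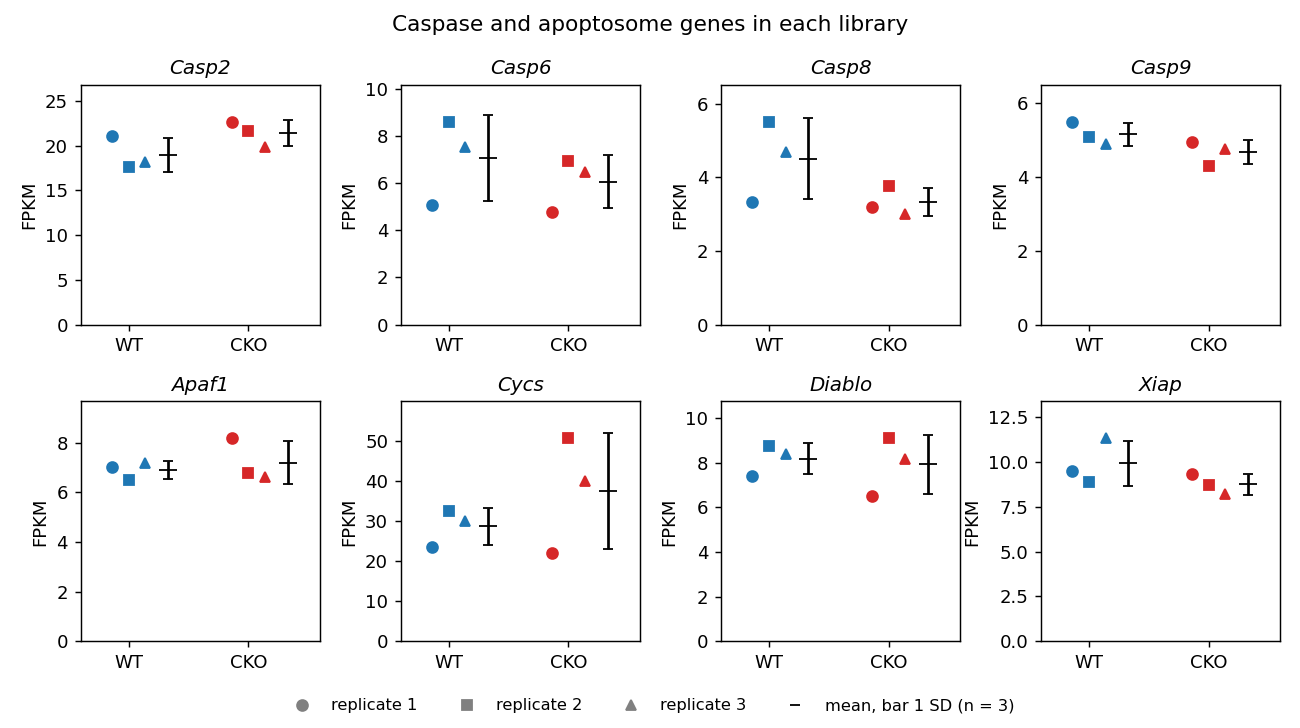
FPKM of each of the 8 genes on an axis that starts at 0, in WT (blue) and CKO (red) libraries, with a symbol for each replicate number and a bar for the mean and 1 SD (n = 3). The groups overlap for each gene, and in *Cycs*, *Casp6* and *Diablo* replicate 1 is the lowest of its group in WT and in CKO.

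The mitochondrial branch starts with cytochrome c, an electron carrier of the respiratory chain that doubles as the trigger of the apoptosome. *Cycs* (ENSMUSG00000063694, chromosome 6 of GRCm38 from 50562563 to 50566538, minus strand) had values of 23.6, 32.6 and 29.996 FPKM in WT replicates 1, 2 and 3. The CKO replicates 1, 2 and 3 had 22.2, 50.8 and 40.0. CKO replicates 2 and 3 were thus the highest libraries and CKO replicate 1 the lowest, so the CKO values enclosed the WT values. The log2 fold change was 0.32 (adjusted *p* = 0.837 by limma, SE 0.29, where SE is the standard error), with a 95% interval from -0.36 to 1.0. With the replicate block the SE was 0.13 and the adjusted *p* value 0.220 by limma. The SD of *Cycs* on the log2 scale was 0.61 in CKO, against a median of 0.22 over all genes.

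*Cycs* followed the globin share of the libraries. The libraries ordered by globin share were CKO replicate 1 (11.7%), WT replicate 1 (13.7%), WT replicate 2 (19.5%), WT replicate 3 (20.6%), CKO replicate 3 (23.5%) and CKO replicate 2 (32.4%). Their *Cycs* values, in the same order, were 22.2, 23.6, 32.6, 29.996, 40.0 and 50.8, so that a single neighbouring pair was out of order. With the globin share as a covariate in the limma model, a setting chosen after the data were seen, the log2 fold change of *Cycs* was 0.05 (adjusted *p* = 0.820 by limma, SE 0.10). All 10 erythroid markers listed were above 0 in every library, with a summed FPKM from 37967 to 64210 in WT and from 30999 to 143320 in CKO. Whether red blood cells carried the *Cycs* mRNA was not tested. In replicates 2 and 3 alone, without the libraries numbered 1, *Cycs* was higher in CKO, with a log2 fold change of 0.53 (adjusted *p* = 0.0067 by limma, SE 0.14), while without CKO replicate 1 it was 0.66 (adjusted *p* = 0.136 by limma) and without CKO replicate 2 it was 0.07 (adjusted *p* = 0.997 by limma).

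The *Cycs* values are uncertain in another respect, since part of its sequence also occurs in other annotated genes. Of the stretches of 50 bases in its annotated transcripts, 26.1% also occur, on either strand, in transcripts of 76 other genes. Among these are 10 processed pseudogenes and the protein-coding copy *Gm10053*, and the share due to copies of *Cycs* alone was not measured. In the table *Gm10053* had an FPKM from 5.71 to 12.5, also lowest in CKO replicate 1 and highest in CKO replicate 2. How reads that match several places were counted is not given in the sources used here.

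The promoters of *Cycs*, *Casp8* and *Casp2* are given here as the RefSeq sequence of GRCm38.p6 on the gene's strand, from 250 bases before to 50 bases after the RefSeq start. *Cycs* and *Casp8* are shown because they had the largest fold changes of the 8 genes in each direction and differ in CpG content, and *Casp2* because it holds a C-rich motif that hnRNP K binds in the *Myc* promoter. The *Cycs* promoter is at chr6:50566520-50566819, the *Casp8* promoter at chr1:58802252-58802551 and the *Casp2* promoter at chr6:42264735-42265034. The RefSeq start of *Casp8* lies inside the GENCODE span of the gene. Capitals mark the motifs TGACGTCA and GCATGCGC in *Cycs*, CCAAT in *Casp8*, and CCCTCCCC and CCAAT, read on either strand, in *Casp2*. CCAAT is found on either strand in 37.4% of all promoters. It also occurs in that of *Cycs*, where it is left in lower case.
Cycs: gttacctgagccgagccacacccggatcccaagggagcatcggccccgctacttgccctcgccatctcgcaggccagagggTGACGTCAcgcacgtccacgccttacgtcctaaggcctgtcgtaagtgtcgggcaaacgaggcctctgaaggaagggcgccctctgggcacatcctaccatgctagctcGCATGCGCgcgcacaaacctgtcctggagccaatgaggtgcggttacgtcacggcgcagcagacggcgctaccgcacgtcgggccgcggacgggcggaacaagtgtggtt
Casp8: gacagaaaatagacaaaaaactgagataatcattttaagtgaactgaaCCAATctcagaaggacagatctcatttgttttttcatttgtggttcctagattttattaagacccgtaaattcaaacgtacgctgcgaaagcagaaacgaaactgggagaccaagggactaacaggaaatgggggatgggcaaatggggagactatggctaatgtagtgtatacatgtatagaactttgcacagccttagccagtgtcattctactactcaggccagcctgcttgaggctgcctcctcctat
Casp2: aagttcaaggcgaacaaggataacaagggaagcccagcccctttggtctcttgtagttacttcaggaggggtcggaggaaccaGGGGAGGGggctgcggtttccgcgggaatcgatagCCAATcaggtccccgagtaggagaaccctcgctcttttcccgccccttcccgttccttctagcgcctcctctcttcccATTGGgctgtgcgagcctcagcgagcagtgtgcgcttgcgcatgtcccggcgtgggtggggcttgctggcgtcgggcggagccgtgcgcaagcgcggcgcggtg

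TGACGTCA is the cyclic AMP response element and is found on either strand in 1.79% of the 32851 promoters of this length. In *Cycs* it starts 169 bases before the gene's start. GCATGCGC is part of the site of NRF1, a regulator of respiratory chain genes, and is found in 2.71% of promoters, among them those of *Cycs* and *Apaf1*. CCCTCCCC is found in 10.8% of promoters, among them that of *Casp2* and 2 of the 3 annotated promoters of *Xiap*. A single decamer of the p53 response element is found in 8.36% of promoters and in none of the 10 promoters of the 8 genes, which says only that these letters are not in these windows. The *Casp8* promoter held 5 CpG dinucleotides, against 32 in *Cycs* and 26 in *Casp2*, where the median over all promoters was 7. No binding data were analysed here, and a match of letters is not a site.

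Apaf1 is the scaffold of the apoptosome. *Apaf1* (ENSMUSG00000019979, chromosome 10 from 90989311 to 91082770, minus strand) was measured at 7.04, 6.50 and 7.19 FPKM in WT replicates 1, 2 and 3. The CKO replicates 1, 2 and 3 had 8.19, 6.77 and 6.64. Only CKO replicate 1 lay above the WT range, and the other CKO libraries lay within it. Its log2 fold change was 0.05 (adjusted *p* = 0.941 by limma, SE 0.13), with a 95% interval that corresponds to a fold change from 0.845 to 1.28. A difference of 2-fold in either direction lies outside this interval.

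Caspase 9 is the initiator caspase that the apoptosome activates. *Casp9* (ENSMUSG00000028914, chromosome 4 from 141793612 to 141815976, plus strand) had FPKM values of 5.51, 5.08 and 4.90 in WT replicates 1 to 3. The CKO replicates had 4.96, 4.31 and 4.75. Within the replicate numbers the log2 differences were -0.15, -0.23 and -0.04, lower in CKO in each, while the groups overlapped between WT replicate 3 and CKO replicate 1. CKO differed from WT by a log2 fold change of -0.14 (adjusted *p* = 0.837 by limma, SE 0.12, adjusted *p* = 0.548 with the replicate block), and the 95% interval corresponds to a fold change from 0.746 to 1.10. The *Casp9* exons share 94 bases with each of *Cela2a* and *Ctrc* on the opposite strand.

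Caspase 8 is the initiator caspase of the death receptors. *Casp8* (ENSMUSG00000026029, chromosome 1 of GRCm38 from 58795374 to 58847503, plus strand) had the lowest mean FPKM of the 8 genes, with 3.34, 5.52 and 4.68 in WT replicates 1 to 3. The CKO replicates had 3.21, 3.76 and 3.01, which rested on 168 to 208 reads, against 174 to 382 reads in WT. WT replicate 1 sat among the CKO values, while WT replicates 2 and 3 lay above all of them. Its log2 fold change was -0.40 (adjusted *p* = 0.654 by limma, SE 0.20), the largest in size among the 8 genes, with a 95% interval from -0.87 to 0.06. The replicate block gave an SE of 0.14 and an adjusted *p* of 0.146 by limma.

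Within the replicate numbers, *Casp8* differed by -0.05, -0.54 and -0.62 between CKO and WT for numbers 1, 2 and 3. It was therefore lower in CKO in each number, by little in the first. Replicates 2 and 3 alone gave a log2 fold change of -0.58 (adjusted *p* = 0.0057 by limma, SE 0.15), a comparison in which *Casp8* and *Cycs* passed the adjusted threshold, as 15.0% of all genes did. Without WT replicate 1 it was -0.60 (adjusted *p* = 0.243 by limma), and without WT replicate 2 it was -0.25. With the globin share as a covariate it was -0.49 (adjusted *p* = 0.256 by limma), farther from 0 than without it, where that of *Cycs* was nearer to 0. Of the 50-base stretches of *Casp8*, 4.37% also occur in the transcribed pseudogene *Gm20257*.

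**Figure D2:**
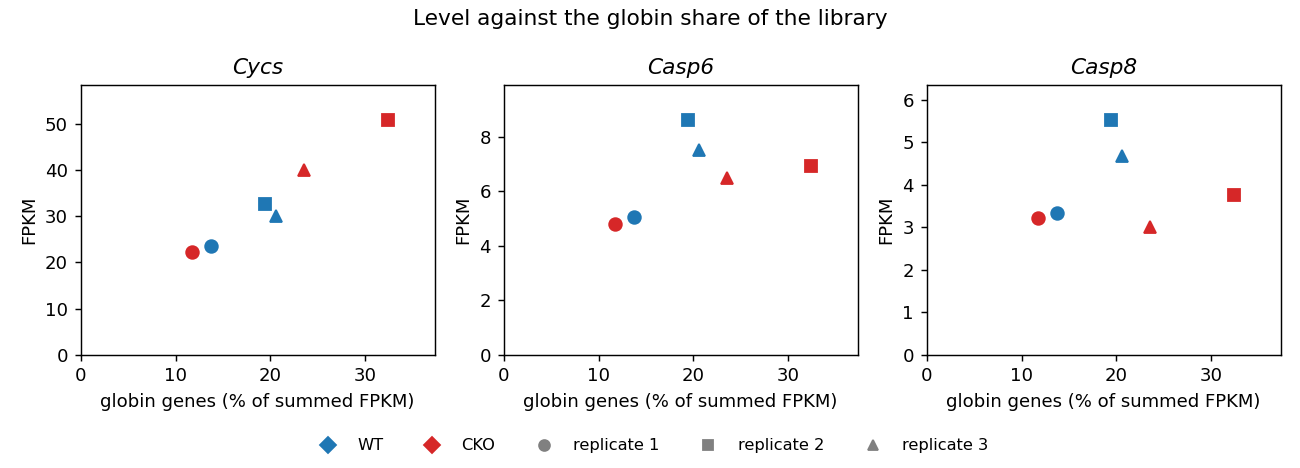
FPKM of *Cycs*, *Casp6* and *Casp8* (y axis) against the percentage of the summed FPKM held by globin genes (x axis) in each of the 6 libraries, with WT in blue, CKO in red and a symbol for each replicate number. *Cycs* climbs from 22.2 at a globin share of 11.7% to 50.8 at 32.4%, whereas *Casp8* is highest in WT replicate 2, at 19.5%.

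Caspase 2 is an initiator that is activated in the PIDDosome, a complex with Pidd1 and Cradd. *Casp2* (ENSMUSG00000029863, chromosome 6 from 42264985 to 42282508, plus strand) reached 21.1, 17.6 and 18.2 FPKM in WT replicates 1 to 3. The CKO replicates had 22.7, 21.7 and 19.9. It was higher in CKO within each number, by 0.11, 0.30 and 0.13 on the log2 scale, and the groups overlapped because WT replicate 1 lay above CKO replicate 3. The difference was 0.18 on the log2 scale (adjusted *p* = 0.768 by limma, SE 0.12, adjusted *p* = 0.377 with the replicate block). The 95% interval corresponds to a fold change from 0.930 to 1.38.

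Caspase 6 acts downstream and is known for cutting lamin A. *Casp6* (ENSMUSG00000027997, chromosome 3 from 129901425 to 129914103, plus strand) reached 5.07, 8.60 and 7.52 FPKM in WT replicates 1 to 3. The CKO replicates had 4.78, 6.93 and 6.47. The libraries numbered 1 were the lowest of each group, and their gap to the others exceeded the difference between CKO and WT. Within the numbers the log2 differences were -0.08, -0.31 and -0.21, lower in CKO in each. Over all libraries the log2 fold change was -0.20 (adjusted *p* = 0.867 by limma, SE 0.23), with a 95% interval from -0.73 to 0.32, and with the replicate block the SE was 0.11 (adjusted *p* = 0.355 by limma). Single libraries moved it, to -0.42 without WT replicate 1, -0.044 without WT replicate 2 and -0.042 without CKO replicate 1.

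Xiap binds and blocks active caspases, caspase 9 among them. *Xiap* (ENSMUSG00000025860, chromosome X from 42059679 to 42109656, plus strand) stood at 9.52, 8.90 and 11.3 FPKM in WT replicates 1 to 3. The CKO replicates had 9.34, 8.69 and 8.21. WT replicate 3 was the highest library, and without it the log2 fold change went from -0.17 (adjusted *p* = 0.803 by limma, SE 0.13) to -0.08. The 95% interval over all libraries corresponds to a fold change from 0.717 to 1.09.

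Diablo, also called Smac, displaces caspases from Xiap. *Diablo* (ENSMUSG00000029433, chromosome 5 from 123509765 to 123524176, minus strand) stood at 7.41, 8.74 and 8.40 FPKM in WT replicates 1 to 3. The CKO replicates had 6.51, 9.11 and 8.16, so that CKO held both the lowest and the highest library. Its log2 fold change was -0.06 (adjusted *p* = 0.949 by limma, SE 0.15), with a 95% interval that corresponds to a fold change from 0.752 to 1.23. The *Diablo* exons share 1193 bases with the annotated gene *Gm49027* on the same strand and 1326 with *B3gnt4* on the opposite strand. Of its 50-base stretches, 37.3% also occur, on either strand, in transcripts of 4 other annotated genes, a larger share than that of *Cycs*. Its FPKM did not come out as whole reads with the merged exon length of the annotation, so the reads behind it are not given.

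**Figure D3:**
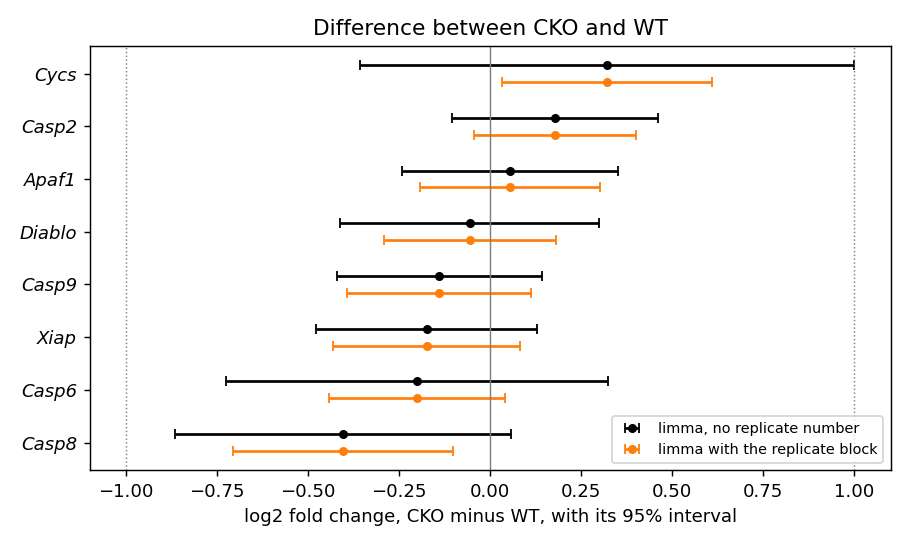
Log2 fold change of CKO minus WT (x axis) with its 95% interval for each of the 8 genes (y axis), from limma without (black) and with (orange) the replicate block. Dotted lines mark a 2-fold difference, and the interval of *Casp8* ends below 0 and that of *Cycs* starts above 0 with the block alone.

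For 7 of the 8 genes, all but *Cycs*, the 95% interval lay within 1 of 0 on the log2 scale, so that a 2-fold difference was outside it. Of all genes tested, 89.4% had such an interval. The interval of *Cycs* ended at 1.0. Without CKO replicate 2 the interval of *Casp8* ran from -1.04 to 0.05 and so took in a 2-fold drop. The interval of the deleted gene *Hnrnpk*, from -0.80 to -0.21, also lay within 1 of 0. These intervals thus describe whole limb buds and not the targeted cells alone.

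The balance between the genes was also read as a ratio of FPKM within each library, which no scaling factor per library moves. The WT replicates 1 to 3 had 0.779, 0.982 and 0.741 *Diablo* per *Xiap*, and the CKO replicates 0.697, 1.05 and 0.994. The ratio of *Apaf1* to *Casp9* was 1.28, 1.28 and 1.47 in WT and 1.65, 1.57 and 1.40 in CKO. For the ratio of *Casp9* to *Xiap* the values ran from 0.432 to 0.579 in WT and from 0.496 to 0.579 in CKO. The ratio of *Casp8* to *Cflar*, whose product c-FLIP blocks caspase 8, ran from 1.16 to 2.38 in WT and from 1.27 to 1.78 in CKO. Each of the 4 ratios overlapped between the groups.

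In WT limb buds, the order of mean FPKM was *Cycs* (28.7 ± 4.61), *Casp2* (18.9 ± 1.88), *Xiap* (9.92 ± 1.26), *Diablo* (8.18 ± 0.691), *Casp6* (7.06 ± 1.81), *Apaf1* (6.91 ± 0.364), *Casp9* (5.16 ± 0.314) and *Casp8* (4.51 ± 1.10), each as mean ± SD of 3 libraries. Neighbours whose WT ranges overlapped were *Diablo* and *Casp6*, *Casp6* and *Apaf1*, and *Casp9* and *Casp8*. In CKO the ranges of *Cycs* and *Casp2* overlapped, since *Casp2* exceeded *Cycs* in CKO replicate 1, and so did those of *Xiap* and *Diablo*, while those of *Casp9* and *Casp8* were apart. In CKO *Apaf1* had a higher mean than *Casp6* (7.20 ± 0.861 and 6.06 ± 1.13). Among the 12305 genes tested, *Cycs* ranked 1352nd and *Casp8* 8174th by mean FPKM.

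The spread over libraries varied among the 8 genes. Over the 6 libraries the SD of log2 FPKM was 0.45 for *Cycs*, 0.33 for *Casp8*, 0.32 for *Casp6*, and from 0.11 for *Casp9* to 0.18 for *Diablo* in the other 5. The gene with the most similar profile, by the root mean square difference of centred log2 values over the 6 libraries, was *Eif3m* for *Cycs* (0.018), *Gpr45* for *Casp8* (0.058), *Serpini1* for *Casp6* (0.040), *Usp37* for *Casp2* (0.025), *Rab35* for *Casp9* (0.020), *Zscan26* for *Apaf1* (0.017), *Clpx* for *Diablo* (0.022) and *Card14* for *Xiap* (0.041). Within a difference of 0.1 there were 90 genes for *Cycs* and 15 for *Casp8*, against 921 for *Casp9*, whose profile is nearly flat.

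Around the 8 genes, 42 further genes of the pathway were listed, from death receptors to caspase substrates, and 34 passed the filter on low values. Of these 34, 17 were higher and 17 lower in CKO, with a median log2 fold change of 0.02, and limma called none at an adjusted *p* value under 0.05 and 2 at an unadjusted one, or 5.88% against 8.31% of all genes. With the replicate block, 2 had an adjusted *p* value under 0.05, *Tnfrsf10b* and *Bax*, each higher in CKO, or 5.88% against 2.81% of all genes. In replicates 2 and 3 alone, 6 passed the adjusted threshold by limma, or 17.6% against 15.0% of all genes. The groups did not overlap in 4 genes, or 11.8% against 14.5% of all genes, with *Tnfrsf10b* and *Bax* higher in CKO and *Sept4* and *Dffa* lower. *Dffa*, which encodes the inhibitor of the caspase-activated DNase, had a log2 fold change of -0.09 (adjusted *p* = 0.868 by limma). The 8 genes not tested were *Casp4*, *Casp12*, *Casp14*, *Fas*, *Fasl*, *Tnfsf10*, *Birc7* and *Xaf1*, each with a mean FPKM under 0.5.

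Upstream of the caspases, the genes that passed with the block were a receptor and a pore protein. *Tnfrsf10b*, the mouse receptor of the death ligand TRAIL, averaged 2.03 ± 0.217 FPKM in WT and 4.29 ± 0.249 FPKM in CKO libraries (SD, n = 3 each), or 1.05 on the log2 scale (adjusted *p* = 0.0786 by limma, SE 0.14, adjusted *p* = 0.0024 with the replicate block). *Bax*, whose product opens the outer mitochondrial membrane and lets cytochrome c out, averaged 23.3 ± 4.14 FPKM in WT and 38.9 ± 7.43 FPKM in CKO libraries, or 0.73 on the log2 scale (adjusted *p* = 0.345 by limma, SE 0.19, adjusted *p* = 0.0040 with the block). With all libraries, both genes passed the threshold with the block and not in the main fit. In replicates 2 and 3 alone, a fit without the block, both passed it too (adjusted *p* = 4.2e-05 and 9.0e-05 by limma). By limma, the alternatives tried gave *Tnfrsf10b* adjusted *p* values of 4.2e-05 to 0.587 and *Bax* of 9.0e-05 to 1.0. The *Bax* exons share 192 bases with the annotated gene *Gm45808* on the same strand. *Fas*, the receptor of Fas ligand, was not tested and had a mean FPKM of 0.126 in WT and 0.378 in CKO. Of the other 5 tested genes of the receptor list, *Cflar* had the largest value, -0.22 (SE 0.16), and *Fadd*, the adaptor that recruits caspase 8, had 0.00 (SE 0.14).

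No tested partner or substrate of the caspases had an adjusted *p* value under 0.05 with all libraries, with or without the block. In replicates 2 and 3 alone, *Apip* (-0.40), *Gsn* (-0.61) and *Nol3* (-0.58) were lower in CKO and *Lmna* (0.39), which encodes lamin A, was higher. Each value is a log2 fold change with an adjusted *p* value under 0.05 by limma, which 15.0% of all genes had there. In these libraries the globin share was 19.5% and 20.6% in WT and 23.5% and 32.4% in CKO. Its part in these differences was not tested. In the PIDDosome, *Pidd1* had a log2 fold change of 0.34 and *Cradd* of 0.25 (adjusted *p* = 0.714 and 0.837 by limma, 0.112 and 0.476 with the block). Of the modifiers, *Apip*, whose product binds Apaf1, had the largest value, -0.40 (adjusted *p* = 0.630 by limma, 0.0772 with the block). Among other IAP genes and their antagonists, *Sept4* had -0.48 at a mean FPKM of 0.582 (adjusted *p* = 0.654 by limma). Of the other caspases, *Casp1* had the largest value, 0.37 at a mean FPKM of 0.504 (adjusted *p* = 0.856 by limma). *Gsn*, encoding gelsolin, an actin-severing caspase substrate, had the largest value of the 9 substrates and effectors, -0.41 (adjusted *p* = 0.783 by limma, 0.162 with the block).

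**Figure D4:**
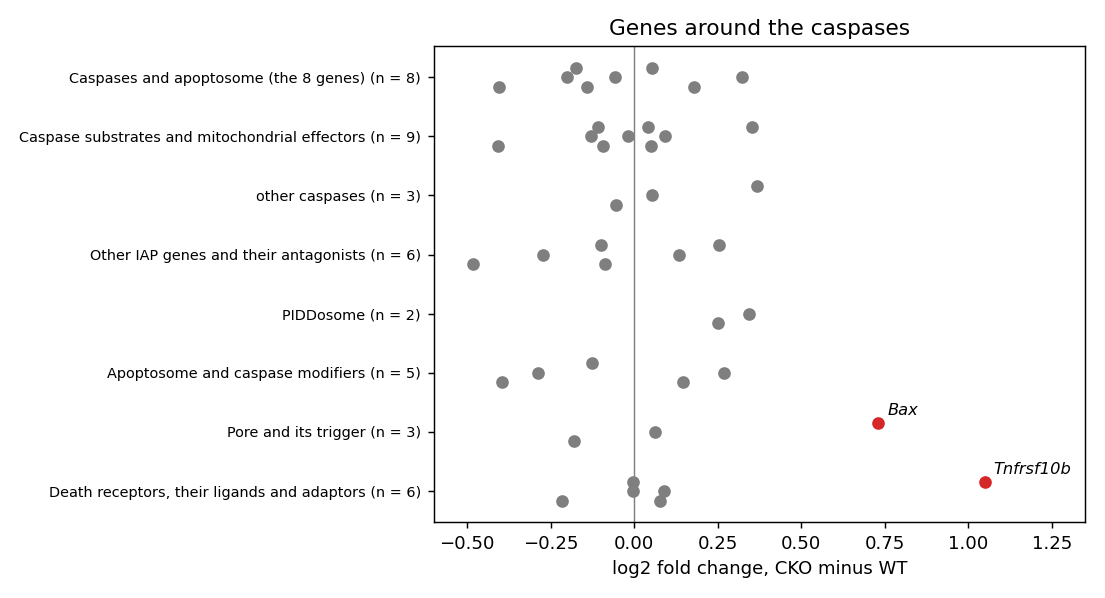
Log2 fold change of CKO minus WT (x axis) for each tested gene of the 7 pathway lists and for the 8 genes (rows), with n as the number of genes tested. Red points are genes with a limma adjusted *p* value under 0.05 with the replicate block, which were *Tnfrsf10b* at 1.05 and *Bax* at 0.73, and all 8 caspase and apoptosome genes lie between -0.40 and 0.32.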

How the data were processed

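Stranded mRNA libraries were made from E11.5 limb buds, and the authors deposited FPKM for protein-coding genes, with 1 column per library. The submitters' notes name cutadapt 2.5, HISAT2 2.1.0, featureCounts 1.6.3 and the build mm10 for the series, without their roles. Whether counting used the strand is not given in the sources used here. The table holds no comparisons of the authors, and no column was left unassigned. The other 28 samples of the series (ATAC-seq, CUT&RUN and Hi-C) were not analysed here.

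Log2(FPKM + 0.1) was compared between CKO and WT with limma 3.58.1 in R 4.3.3 (lmFit, eBayes with a mean-variance trend) where the mean FPKM over all libraries was 0.5 or more, with Benjamini-Hochberg adjustment over all genes tested. Fold changes of low genes are understated on this scale. The study calls the 3 libraries of a group biological replicates, without giving the embryos behind each. Reads were recovered as FPKM times the merged exon length of GENCODE vM21 and the library size, and 92.6% of genes came out whole in all libraries within 0.1 reads. Deviations from the group means correlated across genes at 0.64, 0.44 and 0.27 between libraries numbered 1, 2 and 3. Each was over the minimum of 0.1 set for pairing, and a fit with the number as a block was added beside the main one. The 3 deviations of a group sum to 0, so these values are not independent, and passing the minimum does not show pairing. WT replicate 2 with CKO replicate 3 gave 0.49 and WT replicate 3 with CKO replicate 2 gave 0.31, so that numbers 2 and 3 are not told apart by this check. What a number stands for is not given in the sources used here. The fit was tested on simulated data. Exact permutation tests were two-sided (scipy 1.17.1).

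The 8 genes, the pathway lists and the marker lists were chosen with earlier results of these data known. Genes named are these 8, *Hnrnpk*, pathway genes past the adjusted threshold with or without the block, the largest fold change in each list, and the gene nearest in profile to each of the 8; any other gene was named after its values were seen or to say what a list holds. Values of some single pathway genes are not reported here.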

Additional observations from a re-analysis of the deposited data

How the results depend on the processing

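The 19 alternatives were other pseudocounts, filters and scalings, no trend, the replicate block, voom on recovered reads, replicates 2 and 3 alone, each library left out, and the globin share as a covariate, the last chosen after the data were seen. *Diablo* could not be fitted by voom, since its reads did not come out whole. Of the 8 genes, 0 were called at an adjusted *p* value under 0.05 in each alternative but replicates 2 and 3 alone, where 2 were called, *Casp8* (-0.58) and *Cycs* (0.53). At an unadjusted *p* value under 0.05, the count of 0 became 2 with the replicate block (18.4% of all genes), 2 with voom and the block (20.3%), 2 in replicates 2 and 3 alone (29.0%), 1 with libraries scaled to equal FPKM outside erythroid genes (8.06%), 1 with the globin covariate (16.8%), and 0 to 1 with each library left out (4.17% to 19.6%). The count of genes without overlap between the groups, 0, became 2 under the scaling outside erythroid genes, where 13.8% of all genes had none, 6 in replicates 2 and 3 alone (58.5% of all genes), and 1 to 3 with each library left out (18.0% to 42.0% of all genes). *Casp2*, *Casp6*, *Casp8*, *Casp9*, *Cycs* and *Xiap* kept their direction in every alternative. *Apaf1*, at 0.05, reversed to -0.050 under the scaling outside erythroid genes, to -0.027 in replicates 2 and 3 alone and to -0.041 without CKO replicate 1, within -0.041 to 0.109 over libraries left out. That scaling moved the median of all genes from 0.00 to -0.10, so that *Apaf1* lay above the median under it. *Diablo*, at -0.06, reversed to 0.0087 in replicates 2 and 3 alone and to 0.078 without CKO replicate 1, within -0.162 to 0.078. The cause was not tested. Pathway genes called at an adjusted *p* value under 0.05 numbered 1 of 34 with quantile normalization (0.106% of all genes), 2 with the block (2.81%), 2 with voom and the block (5.17%), 6 in replicates 2 and 3 alone (15.0%) and 1 with the globin covariate (0.228%), and at an unadjusted one, for which the shares of all genes are those above, 6, 8, 9 and 5 in the last 4 of these, against 2 before, with 2 to 6 when each library was left out. Among the 8 genes and the 34 pathway genes, the replicate block changed no call beyond those given here. Over all genes tested, the genes called went from 8 to 346 with it. Whether the libraries are paired by number is not known. Of the 7 genes with recovered reads, depth limits *Casp8* most, with 168 reads in its shallowest library.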
